A study of Homo sapiens with 12 samples.

Results

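The genes described here are 42 human genes. They encode subunits of the proteasome, its activators and assembly chaperones, and NFE2L1, a transcription factor of proteasome genes. They were chosen by name. All 42 were found among 61806 rows of the LP-1 table, which are keyed by Ensembl gene identifiers, and among 19130 rows of the U266 table, which are keyed by gene symbols. They comprise 7 alpha and 7 beta subunits of the 20S core, 3 immunoproteasome subunits, 9 subunits of the base and 8 of the lid of the 19S particle, 4 activators, 3 assembly chaperones and NFE2L1. The samples were LP-1 cells given dihydroartemisinin (DHA), LP-1 cells given DMSO, U266 cells given DHA and U266 cells given DMSO, with 3 libraries in each of these 4 groups. Both are established human multiple myeloma lines, labelled as wild type and of bone marrow origin, and cells were collected after 12 h. DHA, an artemisinin derivative with a peroxide bridge, was used at its IC50, whose value is not given in the labels, and DMSO was the solvent control in an equal amount. All cells shared the same serum-containing RPMI medium. Each line stands for 1 tumour. The labels do not say whether libraries came from separate cultures; the p-values therefore rest on the spread among these libraries, which may be technical.

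The proteasome degrades proteins that carry ubiquitin chains. Its barrel-shaped core holds the proteolytic sites on 3 beta subunits, and the 19S particle on the end of the barrel binds, deubiquitinates, unfolds and feeds in the substrate. In immune cells, the immunoproteasome subunits PSMB8, PSMB9 and PSMB10 can take the places of the constitutive catalytic subunits PSMB5, PSMB6 and PSMB7, which changes the peptides made for display on HLA class I. NFE2L1 (also called NRF1 or TCF11) is made in the endoplasmic reticulum membrane, is extracted and normally degraded, and when the proteasome is short of capacity it is deglycosylated by NGLY1, cut by the protease DDI2 and enters the nucleus, where it binds antioxidant response elements with small MAF partners. Plasma cells and myeloma cells secrete large amounts of antibody chains and are known for their sensitivity to proteasome inhibitors such as bortezomib, which binds PSMB5.

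Values were deposited as FPKM, fragments scaled by transcript length and library size. Depth recovered from the steps of low values was 13.44 to 17.51 M reads in genes for LP-1 libraries and 10.32 to 21.84 M for U266 libraries. Among the genes described, the smallest value corresponded to 28 reads in LP-1 (PSMA2) and 112 reads in U266 (PSMB10). The tables were made separately, so levels are compared only within a line and DHA effects only as changes. Of 10 plasma cell markers, 9 reached a mean of 1 FPKM in each line, the exceptions being SLAMF7 in LP-1 and CD38 in U266. Their summed level in LP-1 was 3574 to 3826 FPKM in DHA libraries and 3911 to 4699 FPKM in DMSO libraries. In U266 the sum was 1393 to 1534 FPKM in DHA libraries and 2257 to 2304 FPKM in DMSO libraries. JCHAIN was the largest part of these sums, with means of 2720 FPKM (DHA) and 3055 FPKM (DMSO) in LP-1. In U266 JCHAIN averaged 701 FPKM (DHA) and 1176 FPKM (DMSO). The sums therefore say little about the other markers. In LP-1, no marker of mature B cells, T and NK cells, monocytes or erythroid cells reached 1 FPKM. Of the stromal and endothelial markers only PECAM1 did, with means of 1.41 FPKM (DHA) and 4.68 FPKM (DMSO). In U266 the third DHA library stood apart, with 18399 genes above 0 against 14682 to 14992 in the other 5 libraries, and it held the highest sums of T and NK cell markers (5.09 FPKM) and of monocyte markers (5.46 FPKM), against at most 1.7 and 0.803 FPKM in DMSO libraries. HBB was the one erythroid marker at 1 FPKM or more in U266, where the erythroid sum was 6.98 to 7.56 FPKM with DHA and 10.2 to 11.6 FPKM with DMSO. The mature B cell sum in U266 was 4.97 to 12.8 FPKM with DHA and 3.36 to 3.82 FPKM with DMSO. BCL6 averaged 4.74 FPKM (DHA) and 2.53 FPKM (DMSO) there. Stromal and endothelial markers summed to 1.46 to 4.55 FPKM with DHA and 0.995 to 1.42 FPKM with DMSO in U266. In LP-1 the third DMSO library stood apart: over the 42 genes its log2 value was a median of 0.50 above the mean of the other 2 DMSO libraries, and 35 of the 42 genes were higher in it. In bulk RNA, fewer cells of a type and less RNA per cell cannot be told apart.

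NFE2L1 (ENSG00000082641, chr17:48048329-48061487, plus strand, GRCh38) had 162, 169 and 163 FPKM in the DHA libraries of LP-1, against 40.2, 40.8 and 23.5 FPKM in the DMSO libraries. Every DHA library lay far above every DMSO library, and the third DMSO library was the lowest of all. The log2 change, taken throughout on log2(FPKM + 1), was 2.25 (SE 0.212, 95% interval 1.74 to 2.76, limma adjusted p = 0.000737). In U266, NFE2L1 had 276.5, 265.5 and 252.2 FPKM in DHA libraries, against 117, 126 and 122 FPKM in DMSO libraries, again with no overlap. The log2 change there was 1.12 (SE 0.0521, adjusted p = 1.73e-07). Under 15 alternatives in each line the change ran between 2.00 and 2.38 in LP-1 and between 1.01 and 1.16 in U266, with every call kept. After DHA, its transcript in U266 averaged 265 ± 12.2 FPKM (SD, n = 3), above PSMB4 at 245 ± 19.2 FPKM, the most abundant subunit transcript in both lines; under DMSO the order was the other way, with 122 ± 4.18 FPKM for NFE2L1 and 262 ± 10.3 FPKM for PSMB4.

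**Figure D1:**
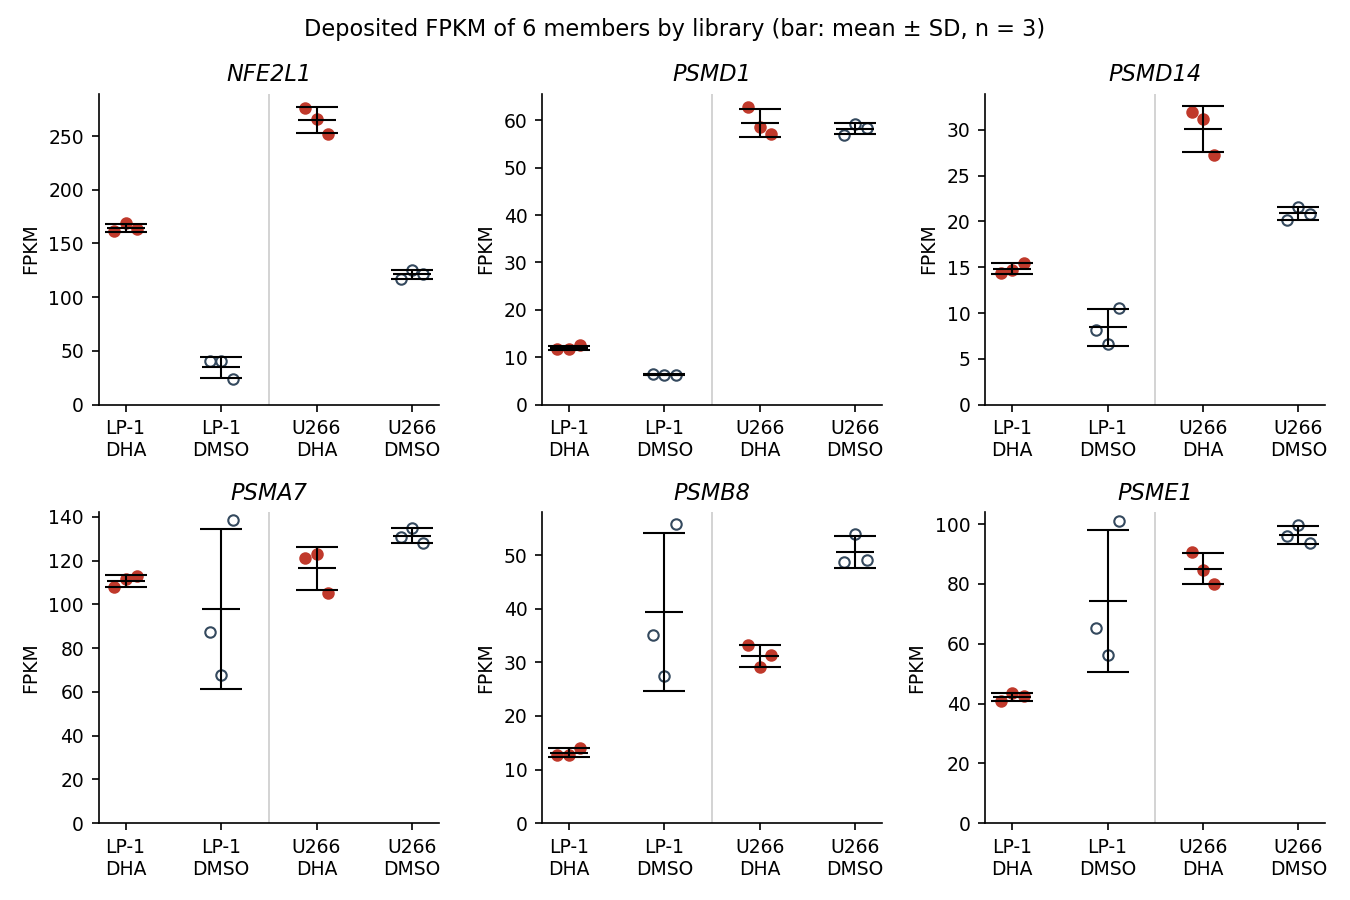
FPKM of NFE2L1, PSMD1, PSMD14, PSMA7, PSMB8 and PSME1 in each library (filled points DHA, open points DMSO; bars are the mean and SD of 3 libraries). NFE2L1 and PSMD14 lie higher with DHA in both lines, PSMB8 and PSME1 lower, and PSMA7 shows the third LP-1 DMSO library at 138 FPKM against 67.7 and 87.5 FPKM in the other DMSO libraries.

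In LP-1, 41 of the 42 genes were tested; 14 of them rose, 3 fell and 24 missed the threshold, with a median log2 change of 0.21; among all 12514 genes tested, 20% were higher and 20.2% lower, with a median of 0.01. Of the 14 rises, 11 lay in the 19S particle, where 6 of 9 base genes and 5 of 8 lid genes rose and the median over these 17 genes was 0.46. PSMC1, counted among the 6 base rises, reached 1 FPKM only in its DHA libraries. It thus entered the test only through the group where it was high, and its rise lends the counts no support. The other 3 rises were NFE2L1, PSME4 and PSMG1. None of the 13 tested constitutive core genes passed, 6 alpha and 7 beta, and their median was 0.13. PSMA2, the remaining alpha gene, was not tested because it lay at 0.64 to 0.82 FPKM with DHA and 0.39 to 0.74 FPKM with DMSO. In 13 of the 17 base and lid genes all 3 DHA libraries lay above all 3 DMSO libraries, which held for 30.2% of all genes tested; in the core genes it held for 0 of 14.

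The counts depended on single libraries. Without the third LP-1 DMSO library, 29 of the 41 genes rose, among them all 17 base and lid genes and 8 of the 13 core genes, while the background became 28% higher and 28.6% lower. That library lay above the other 2 DMSO libraries by a median of 0.76 log2 units in core beta genes, 0.59 in core alpha genes, 0.30 in base genes and 0.16 in lid genes. Without DHA replicate 1, 2 or 3 the rises numbered 8, 8 and 9, without DMSO replicate 1 they numbered 10, and the base and lid share of them was then 7, 7, 8 and 8 genes. The background was smaller as well, at 10.9%, 11% and 11.2% higher (12.4%, 12.3% and 12.7% lower) without DHA replicate 1, 2 or 3, and at 14.4% higher (14.5% lower) without DMSO replicate 1. The base and lid median stayed between 0.39 and 0.54 without any 1 library, and the core median between -0.04 and 0.29.

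**Figure D2:**
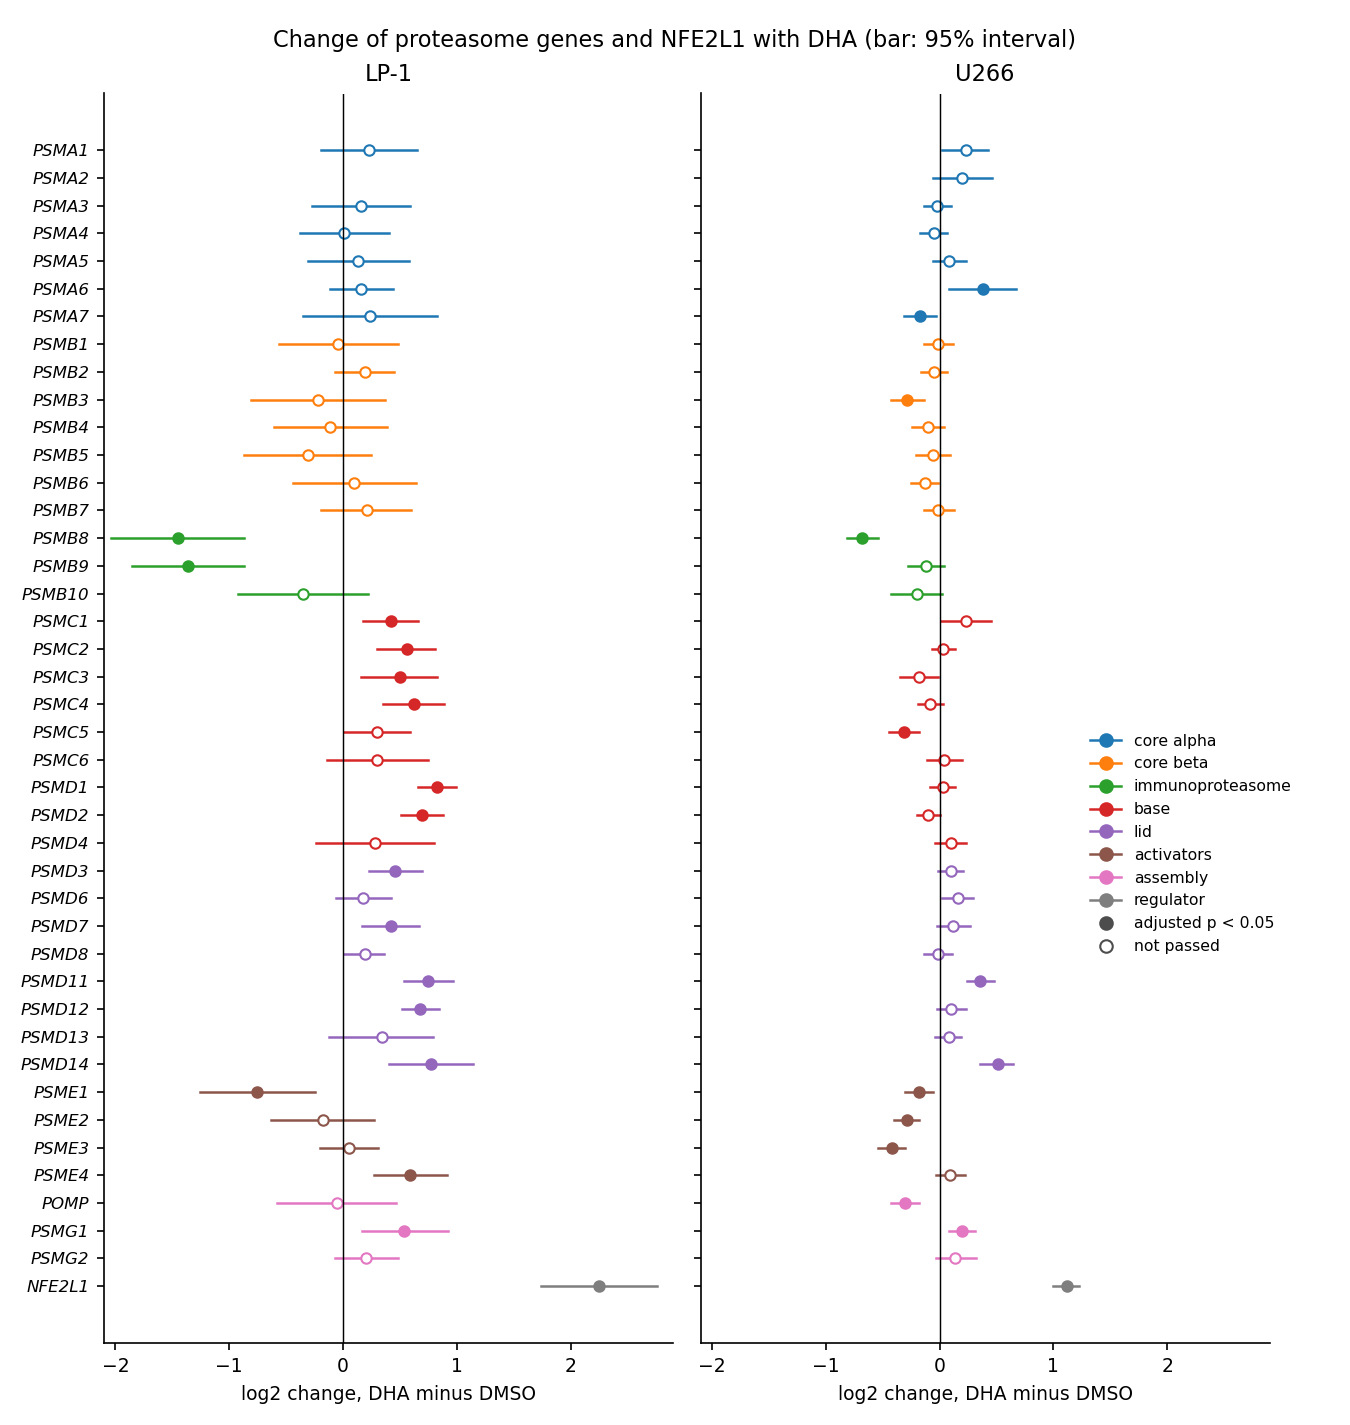
Log2 change with its 95% interval for every gene, by class, in LP-1 (left) and U266 (right); filled points passed at an adjusted p of 0.05. In LP-1 the base and lid genes sit between 0.18 and 0.83 and PSMB8 and PSMB9 near -1.4; in U266 most intervals cover 0.

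PSMD1, a scaffold of the base that holds docking sites for ubiquitin receptors, had the largest rise among the subunits in the 42 genes in LP-1, with 11.8, 11.7 and 12.5 FPKM in DHA libraries against 6.5, 6.24 and 6.22 FPKM in DMSO libraries. The groups were tight and did not overlap, and the log2 change was 0.83 (SE 0.0702, adjusted p = 0.000499). Its partner PSMD2 had 61.6, 65.0 and 65.3 FPKM with DHA against 40.8, 36.7 and 40.1 FPKM with DMSO (log2 change 0.69, adjusted p = 0.00126). The third DMSO library did not stand out in either gene. Among the ATPases that unfold substrates, PSMC4 had 49.2, 51.1 and 48.8 FPKM with DHA against 32.1, 27.8 and 36.9 FPKM with DMSO (log2 change 0.62, adjusted p = 0.00683). PSMC2 (0.56), PSMC3 (0.50) and PSMC1 (0.42) rose as well, whereas PSMC5 (0.30, adjusted p = 0.0871), PSMC6 (0.30, adjusted p = 0.231) and the ubiquitin receptor PSMD4 (0.28, adjusted p = 0.326) did not pass. PSMC3 lost its call without DMSO replicate 1, any 1 DHA library or the filter (adjusted p 0.0695 to 0.101). PSMC1 lay at 1.23 to 1.48 FPKM with DHA and 0.66 to 0.80 FPKM with DMSO, so only its DHA libraries met the filter. It shares 75.8% of its exon bases with NRDE2 on the opposite strand, has 13 annotated pseudogenes, and lost its call under 6 of 14 alternatives (adjusted p up to 0.0827). Strand use in the authors' counting is not stated, so the value of PSMC1 is uncertain.

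In the lid, PSMD14, the deubiquitinase that removes ubiquitin chains at the pore, had 14.4, 14.7 and 15.5 FPKM in DHA libraries of LP-1 against 8.12, 6.62 and 10.6 FPKM in DMSO libraries (log2 change 0.77, SE 0.153, adjusted p = 0.00961). In U266 it had 31.9, 31.2 and 27.2 FPKM in DHA libraries against 20.2, 21.6 and 20.8 FPKM in DMSO libraries (0.51, SE 0.0653, adjusted p = 0.00019). The groups were separate in both lines. PSMD11, a lid scaffold, had 22.5, 22.5 and 21.5 FPKM with DHA against 13.3, 13.7 and 11.4 FPKM with DMSO in LP-1 (0.75, adjusted p = 0.00149). The same gene had 47.9, 44.0 and 43.2 FPKM with DHA against 34.8, 34.0 and 35.7 FPKM with DMSO in U266 (0.36, adjusted p = 0.000427), a call lost with TMM-style scaling (0.25, adjusted p = 0.11). The scaffold subunits PSMD12 (0.68) and PSMD3 (0.46) and PSMD7, the partner of PSMD14 (0.42), rose in LP-1 and did not pass in U266 (0.10, 0.10 and 0.12). In LP-1, PSMD3 lost its call without DHA replicate 1 or 2 (adjusted p 0.0504 and 0.0562), and PSMD7 without DMSO replicate 1 or any 1 DHA library (0.0643 to 0.0839). PSMD6 (0.18), PSMD8 (0.19) and PSMD13 (0.34) did not pass in LP-1.

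Promoters were searched for 3 motifs, and RefSeq windows from 250 bases before to 50 after the transcription start (GRCh38.p14) were at hand for 37 of the 42 genes. The core of the antioxidant response element, to which NFE2L1 and small MAF proteins bind, was searched as TGACNNNGC on both strands. A gene can have more than 1 window, and a match in any of them was counted. The motif lay in a window of 13 of the 37 genes (35.1%), against 16.1% of 27305 genes. Of those 13 genes, 6 rose, 2 fell and 5 did not pass in LP-1; of the 24 without it, 8 rose, 1 fell, 14 did not pass and 1 was not tested. In U266, 1 rose and 4 fell of the 13, and 4 rose and 3 fell of the 24. The 2 genes with this motif that fell in LP-1 were PSMB9 (log2 change -1.36) and PSME1 (-0.76), and their matches are not printed. The stretches around the match are given for 4 genes that rose in LP-1 and for PSMB3, which did not rise. Each stretch reads 5′ to 3′ on the strand of the gene, with the match in capitals. They lie at chr17:39980734-39980814 (plus strand), chr17:67366698-67366778 (minus strand), chr2:53970983-53971063 (minus strand), chr21:39183590-39183670 (minus strand) and chr17:38752601-38752681 (plus strand).
PSMD3: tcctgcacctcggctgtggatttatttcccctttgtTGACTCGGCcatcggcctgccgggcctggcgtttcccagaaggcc
PSMD12: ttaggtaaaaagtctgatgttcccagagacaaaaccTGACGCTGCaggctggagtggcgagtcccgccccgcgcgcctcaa
PSME4: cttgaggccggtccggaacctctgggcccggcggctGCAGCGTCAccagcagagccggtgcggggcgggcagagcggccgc
PSMG1: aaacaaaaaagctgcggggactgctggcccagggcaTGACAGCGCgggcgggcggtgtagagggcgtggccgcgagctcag
PSMB3: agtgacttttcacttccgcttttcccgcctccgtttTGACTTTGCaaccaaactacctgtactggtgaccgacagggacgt

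The printed match starts 37 bases before the transcription start in PSMD3, 165 in PSMD12, 34 in PSME4 (as the reverse complement), 183 in PSMG1 and 104 in PSMB3. PSMD3 holds another match, GCTCCGTCA (a reverse complement), 33 bases after the transcription start and beyond the printed stretch. The CCAAT box lay in a window of 19 of the 37 genes (51.4%), against 39.7% of all genes. NFE2L1 held CCAAT boxes on both strands and no TGACNNNGC. These matches describe letters in a window and were not tested as binding sites.

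Within the core, PSMB5, the chymotrypsin-like subunit, had 26.5, 29.6 and 29.4 FPKM in DHA libraries of LP-1 against 32.2, 26.6 and 52.0 FPKM in DMSO libraries. The groups overlapped, and the spread came mainly from the third DMSO library (log2 change -0.31, 95% interval -0.87 to 0.25, adjusted p = 0.323). In U266 PSMB5 had 52.2, 53.8 and 47.0 FPKM with DHA against 52.8, 56.9 and 49.8 FPKM with DMSO (-0.06, 95% interval -0.21 to 0.09). Changes of the other core genes in LP-1 lay between -0.22 (PSMB3) and 0.24 (PSMA7), with wide intervals, such as -0.35 to 0.83 for PSMA7 and -0.81 to 0.37 for PSMB3. PSMB1 was at -0.04 (adjusted p = 0.888) and passed as higher without the third DMSO library (0.21, adjusted p = 0.037). As a ratio within each library, which a scaling factor per library cannot move, the summed FPKM of base and lid genes over that of the constitutive core genes was 0.871, 0.876 and 0.875 in DHA libraries of LP-1, against 0.677, 0.722 and 0.55 in DMSO libraries. In U266 the ratio was 0.86, 0.852 and 0.891 with DHA, against 0.806, 0.786 and 0.818 with DMSO. All DHA libraries lay above all DMSO libraries in both lines. A library bias that depends on exon length can still move this ratio. PSMB4 alone gave 230 to 237 FPKM of the core sum of 741 to 772 FPKM in DHA libraries of LP-1. In U266 the base and lid sums themselves overlapped, with 878 to 951 FPKM with DHA and 872 to 924 FPKM with DMSO. The ratio was formed after the class counts were seen and carries no test.

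Of the 3 immunoproteasome genes, PSMB8 and PSMB9 fell in LP-1 and PSMB8 fell in U266. PSMB8 (chr6:32840717-32844703, minus strand, GRCh38), the inducible counterpart of PSMB5, had 12.8, 12.7 and 14.1 FPKM in DHA libraries of LP-1 against 35.0, 27.4 and 55.9 FPKM in DMSO libraries. Even the lowest DMSO library lay well above the highest DHA library, and the log2 change was -1.45 (SE 0.242, adjusted p = 0.00503). In U266 PSMB8 had 33.3, 29.2 and 31.4 FPKM with DHA against 48.6, 54.0 and 49.1 FPKM with DMSO (-0.68, SE 0.0618, adjusted p = 1.91e-05). PSMB9 (chr6:32844136-32859585, plus strand), its neighbour and the counterpart of PSMB6, had 5.22, 5.63 and 5.40 FPKM with DHA against 13.5, 12.3 and 21.9 FPKM with DMSO in LP-1 (-1.36, SE 0.203, adjusted p = 0.0034). In U266, by contrast, PSMB9 had 19.01, 19.6 and 16.49 FPKM with DHA against 20.8, 18.8 and 20.3 FPKM with DMSO, with overlapping groups (-0.12, adjusted p = 0.217). The change differed between the lines by -1.24 log2 units (LP-1 minus U266, SE 0.224, adjusted p = 0.00153 for the interaction). PSMB10, the counterpart of PSMB7, had 12.2, 12.6 and 12.1 FPKM with DHA against 15.2, 11.2 and 23.4 FPKM with DMSO in LP-1 and did not pass (-0.35, adjusted p = 0.277). Nor did it pass in U266, with 5.85, 5.88 and 5.46 FPKM with DHA against 5.63, 7.51 and 7.25 FPKM with DMSO (-0.20, adjusted p = 0.139). PSMB8 and PSMB9 share exon bases with each other and with the antisense gene PSMB8-AS1, which covers 20.6% of the exon bases of PSMB8, and reads of these genes may be split between them. The same limit holds for PSMB10, which shares 34.8% of its exon bases with AC040162.1 on the same strand. Called genes of other classes also overlap opposite-strand genes, such as PSMD7 (30.7%, AC009120.2) and PSMC5 (19.5%, FTSJ3).

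Each immunoproteasome gene was also set against the constitutive gene whose place its product takes, within each library. The ratio of PSMB8 to PSMB5 was 0.481, 0.427 and 0.479 in DHA libraries of LP-1, against 1.09, 1.03 and 1.07 in DMSO libraries, a log2 difference of -1.20. The third DMSO library did not stand apart in this ratio. PSMB9 to PSMB6 was 0.104, 0.112 and 0.111 with DHA against 0.328, 0.346 and 0.326 with DMSO (-1.61), and PSMB10 to PSMB7 was 0.202, 0.202 and 0.189 with DHA against 0.293, 0.258 and 0.343 with DMSO (-0.58). In U266, PSMB8 to PSMB5 was 0.637, 0.542 and 0.668 with DHA against 0.921, 0.948 and 0.987 with DMSO (-0.63). PSMB10 to PSMB7 was 0.0268, 0.0278 and 0.0276 with DHA against 0.0285, 0.0339 and 0.0342 with DMSO (-0.23), and PSMB9 to PSMB6 overlapped between the groups (0.272, 0.295 and 0.245 with DHA against 0.292, 0.236 and 0.283 with DMSO). In 5 of the 6 ratios all DHA libraries lay below all DMSO libraries, and each of these 5 had an exact two-sided permutation p of 0.1 (0.12 adjusted over the 6), the smallest that 3 against 3 libraries allow, so the design cannot pass 0.05 for any of them. PSMB8, PSMB9 and PSMB10 together made up 18.1%, 17.8% and 18.2% of the summed FPKM of the 6 catalytic genes in DHA libraries of LP-1, against 33.7%, 32.6% and 35.1% in DMSO libraries. In U266 the share was 14.6%, 14.1% and 14.6% with DHA against 18.9%, 18.3% and 18.7% with DMSO.

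**Figure D3:**
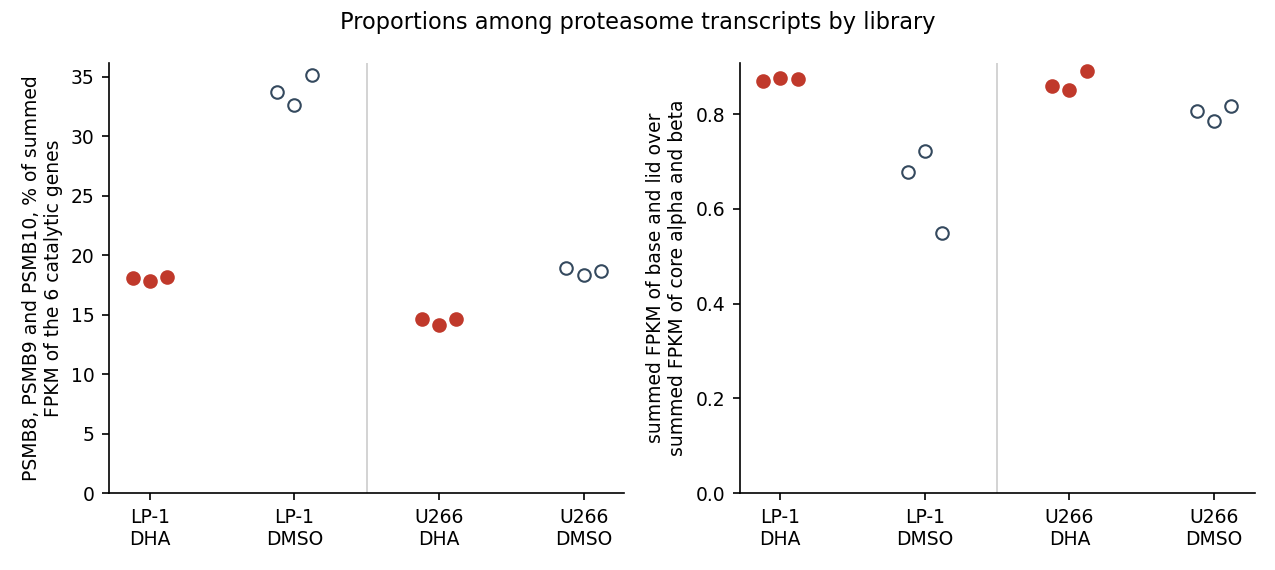
Left, the share of PSMB8, PSMB9 and PSMB10 in the summed FPKM of the 6 catalytic genes; right, summed FPKM of base and lid over that of the constitutive core, each point 1 library (filled DHA, open DMSO). DHA libraries lie lower on the left (17.8% to 18.2% against 32.6% to 35.1% in LP-1) and higher on the right in both lines.

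Among the activators, the PA28 genes PSME1 and PSME2 encode the ring that opens the core gate and, like the immunoproteasome, are known interferon targets. PSME1 had 40.7, 43.4 and 42.4 FPKM in DHA libraries of LP-1 against 65.3, 56.2 and 101 FPKM in DMSO libraries (log2 change -0.76, SE 0.209, adjusted p = 0.0295). The groups did not overlap, but the call was lost under 6 of 15 alternatives, namely without DMSO replicate 1 or any 1 DHA library, with TMM-style scaling and without the filter (adjusted p 0.0541 to 0.0954). In U266 PSME1 had 90.6, 84.5 and 80.1 FPKM with DHA against 95.9, 99.7 and 93.7 FPKM with DMSO (-0.18, adjusted p = 0.0237), a call lost under 9 of 15 alternatives (up to 0.437). PSME2 overlapped in LP-1 (-0.18, adjusted p = 0.471) and fell in U266, where it had 33.7, 32.5 and 30.5 FPKM with DHA against 39.3, 39.4 and 40.2 FPKM with DMSO (-0.29, adjusted p = 0.00124), a call lost in the fit of all 12 libraries (0.146). PSME3, the nuclear PA28 gamma, fell in U266 with 40.2, 35.9 and 39.2 FPKM with DHA against 52.7, 52.3 and 49.8 FPKM with DMSO (-0.42, adjusted p = 0.000205). It did not pass in LP-1 (0.05, 95% interval -0.20 to 0.31). PSME4, which encodes the large activator PA200, went the other way in LP-1, with 22.3, 21.8 and 22.3 FPKM with DHA against 15.1, 16.9 and 11.6 FPKM with DMSO (0.59, adjusted p = 0.0149). That call was lost without any 1 DHA library (adjusted p 0.055 to 0.0583), and in U266 PSME4 did not pass (0.09, adjusted p = 0.226).

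The interferon response pair was searched as GAAA, any 2 bases and GAAA on both strands and was added after the values were seen. It lay in a window of 6 of the 37 genes (16.2%), against 4.38% of all genes. The 6 genes were PSMB8, PSMB10, PSME1, PSME2, PSMA4 and PSMB4, of which PSMB8 and PSME1 fell in LP-1, PSMB8, PSME1 and PSME2 fell in U266, and none rose. The 4 of them in the immunoproteasome and PA28 share the same 10 letters, GAAAGCGAAA, on one strand or the other, within 28 bases of the transcription start. They are shown because PSMB8, PSME1 and PSME2 carry the falls named above, and they lie at chr6:32844023-32844087 (minus strand), chr16:67936826-67936907 (minus strand), chr14:24136163-24136218 (plus strand) and chr14:24146593-24146674 (minus strand).
PSMB8: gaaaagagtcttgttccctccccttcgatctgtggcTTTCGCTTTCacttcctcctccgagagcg
PSMB10: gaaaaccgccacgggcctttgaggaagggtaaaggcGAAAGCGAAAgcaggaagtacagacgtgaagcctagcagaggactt
PSME1: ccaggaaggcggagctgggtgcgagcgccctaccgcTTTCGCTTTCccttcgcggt
PSME2: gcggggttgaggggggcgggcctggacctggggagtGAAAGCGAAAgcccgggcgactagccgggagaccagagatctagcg

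The assembly chaperones differed among themselves. PSMG1, which with PSMG2 guides formation of the alpha ring, had 33.1, 33.5 and 35.5 FPKM in DHA libraries of LP-1 against 21.0, 19.5 and 29.6 FPKM in DMSO libraries (log2 change 0.54, adjusted p = 0.0331). In U266 it had 41.7, 46.0 and 42.7 FPKM with DHA against 38.2, 38.3 and 36.7 FPKM with DMSO (0.20, adjusted p = 0.0112). Both calls were fragile: the first was lost without any 1 library other than DMSO replicate 3 and without the filter (adjusted p 0.0628 to 0.107), and the second with TMM-style scaling (0.09, adjusted p = 0.589), in the fit of all 12 libraries (0.244) and without DMSO replicate 3 (0.0515). PSMG2 did not pass in either line (0.20 in LP-1 and 0.14 in U266). POMP, which matures the beta ring, had 8.20, 8.24 and 8.54 FPKM with DHA against 7.92, 6.42 and 12.7 FPKM with DMSO in LP-1 (-0.05, adjusted p = 0.854). It fell in U266, with 57.5, 62.3 and 57.8 FPKM with DHA against 78.5, 72.4 and 69.1 FPKM with DMSO (-0.30, adjusted p = 0.00214), a call lost in the fit of all 12 libraries (adjusted p = 0.195).

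U266 showed fewer and smaller rises among the subunits. Of 42 tested, 5 rose, 8 fell and 29 did not pass, with a median log2 change of -0.01; over all 10422 genes tested, 21.1% were higher and 19.6% lower, so the share called was not above the background. The rises were NFE2L1, PSMD14, PSMD11, PSMG1 and PSMA6, and the falls PSMB8, PSME3, PSMC5, POMP, PSME2, PSMB3, PSME1 and PSMA7. With TMM-style scaling 2 rose and 6 fell (background 11.1% higher and 20.9% lower), and the share of higher calls among all called genes was 34.6% in place of 51.9%; with quantile normalization 9 rose and 6 fell (background 18.9% and 22%), and without the third DHA library 8 rose and 6 fell (background 21.3% and 20.6%). PSMC5, an ATPase, had 31.2, 28.0 and 30.8 FPKM with DHA against 35.5, 38.2 and 38.7 FPKM with DMSO (-0.31, adjusted p = 0.00177). PSMB3, a non-catalytic beta subunit, had 127, 115 and 110 FPKM with DHA against 140, 154 and 136 FPKM with DMSO (-0.29, adjusted p = 0.00637), a call lost in the fit of all 12 libraries (0.283). The alpha subunits PSMA6 and PSMA7 went opposite ways. PSMA6 had 2.22, 2.69 and 2.13 FPKM with DHA against 1.85, 1.42 and 1.46 FPKM with DMSO (0.38, adjusted p = 0.0424), and PSMA7 had 121, 123 and 105 FPKM with DHA against 131, 135 and 128 FPKM with DMSO (-0.17, adjusted p = 0.0478). Either call was lost under most alternatives, 9 of 14 for PSMA6 (adjusted p up to 0.209) and 10 of 15 for PSMA7 (up to 0.531), including removal of several single libraries. PSMA6 and PSMA2 had the lowest FPKM of all core genes in both lines and have 4 and 3 annotated pseudogenes, so reads may be shared with these copies.

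PSMD11, PSMD14, PSMG1 and NFE2L1 rose in both lines, which is 28.6% of the rises in LP-1 and 80% of those in U266. PSMB8 and PSME1 fell in both, 66.7% of the falls in LP-1 and 25% of those in U266. None rose in one line and fell in the other. Of the 8916 genes tested in both lines, 10.2% were higher in both (44.3% of the rises in LP-1 and 46.9% of those in U266), 6.07% were lower in both (32.4% of the falls in LP-1 and 29.6% of those in U266) and 3.79% had opposite calls. The lines were compared directly as the difference between their DHA effects, in 1 fit over the 8916 genes kept in both lines, of which 18.5% had a higher and 16% a lower change in LP-1. Of the 41 genes described here that were in this fit, 12 had a higher change in LP-1, 2 a lower one and 27 did not pass. The 12 were 6 base genes, 3 lid genes, PSME3, PSME4 and NFE2L1. The difference was 0.80 for PSMD1 (SE 0.086, adjusted p = 5.24e-05), which in U266 had 62.8, 58.5 and 57.0 FPKM with DHA against 57.0, 59.3 and 58.5 FPKM with DMSO. For PSMD2 the difference was 0.79 (adjusted p = 7.59e-05), and U266 had 102, 102 and 97.7 FPKM with DHA against 110, 109 and 105 FPKM with DMSO. For PSMC4 it was 0.70 (adjusted p = 0.00155), and U266 had 111, 102 and 101 FPKM with DHA against 112, 111 and 109 FPKM with DMSO. These base genes rose in LP-1, and none of the 3 passed in U266 (0.03, -0.10 and -0.08). NFE2L1 differed by 1.13 (SE 0.226, adjusted p = 0.00271). PSMD14 did not pass, with a difference of 0.26 and a 95% interval of -0.11 to 0.64. The 2 genes with a lower change in LP-1 were PSMB9 and PSMB8; the PSMB8 difference of -0.78 (adjusted p = 0.0367) was lost without any 1 DHA library of LP-1, without any 1 library of U266, without the filter and with TMM-style scaling (adjusted p up to 0.101). Without the third LP-1 DMSO library 28 genes had a higher change in LP-1 and 3 a lower one, over a background of 25.4% higher and 22.4% lower. TMM-style scaling moved the median difference of all genes to 0.15, against 0.02 as deposited, and the share of higher calls to 72.5%, against 53.6%; the base and lid median was then 0.51, against 0.36.

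**Figure D4:**
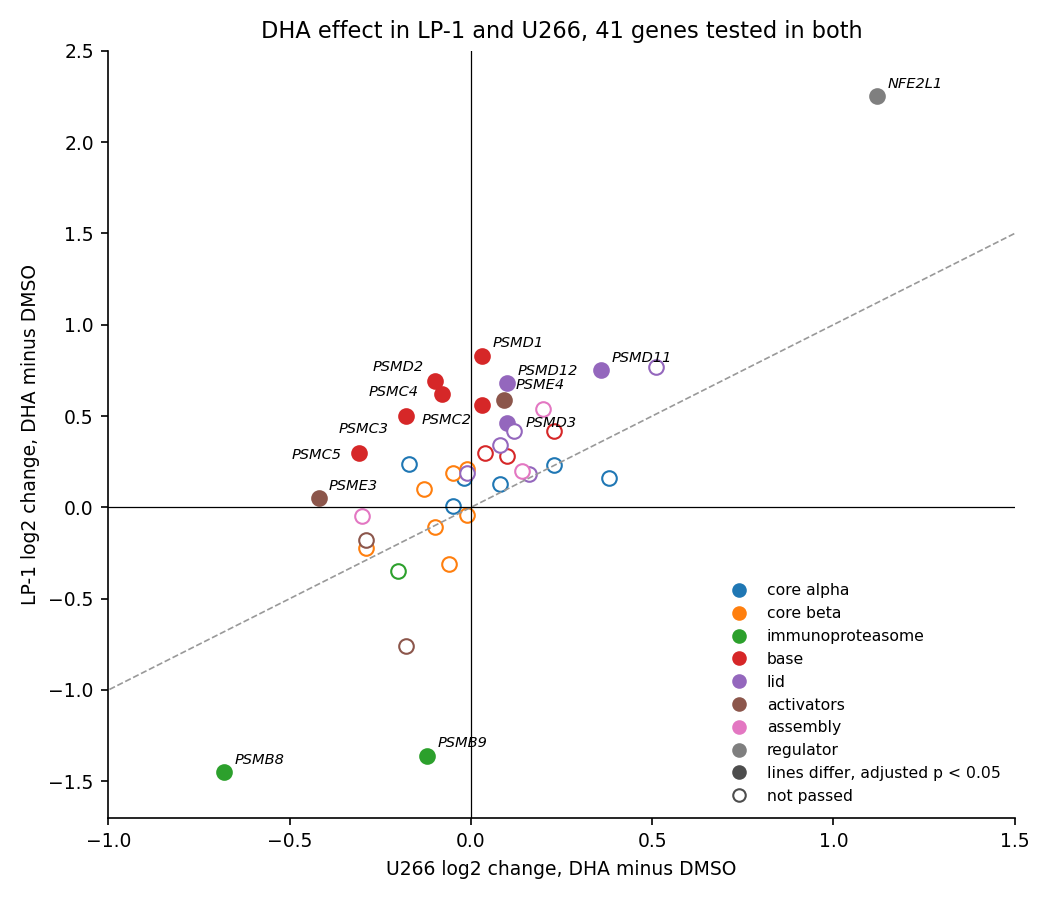
Log2 change in LP-1 (vertical) against that in U266 (horizontal) for the 41 genes tested in both lines; filled points passed the test of the difference, and the dashed line marks equal changes. PSMD1, PSMD2 and PSMC4 lie above the line with U266 changes of 0.03, -0.10 and -0.08, and PSMB8 and PSMB9 lie below it.

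**Figure D5:**
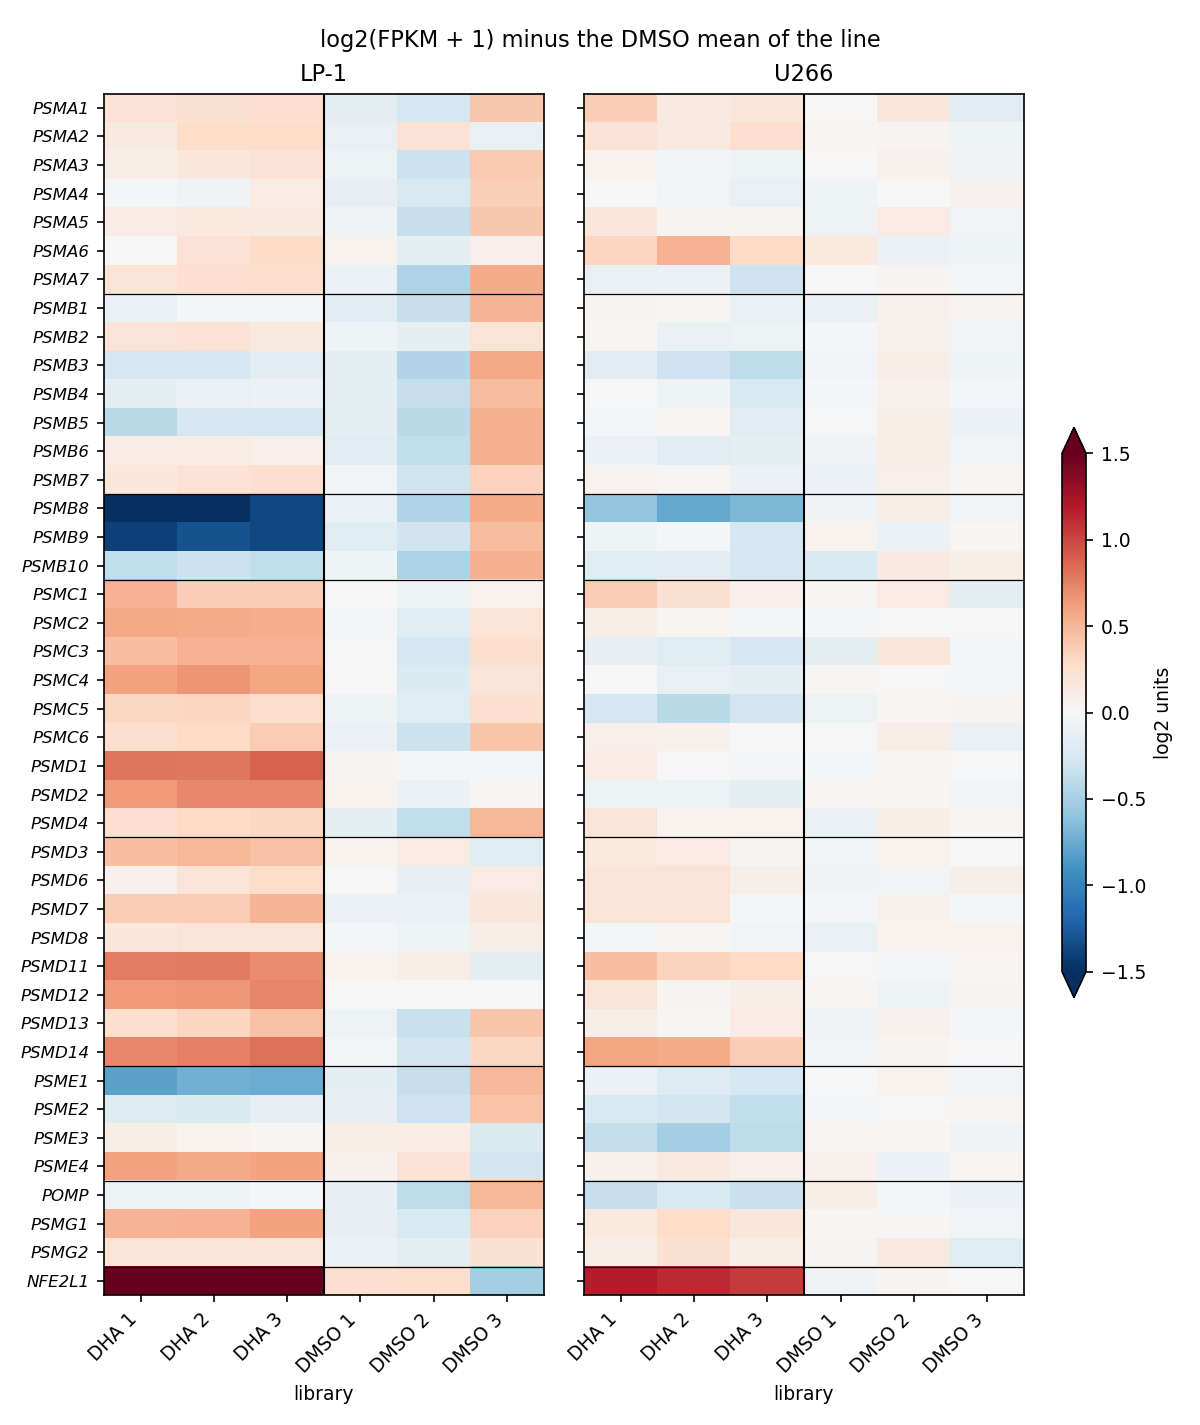
Log2(FPKM + 1) of every gene in every library minus the DMSO mean of its line, by class from alpha subunits (top) to NFE2L1 (bottom); red is higher and blue lower, with colours capped at 1.5 log2 units. The third LP-1 DMSO library is red across most core genes, where it lies a median of 0.59 (alpha) and 0.76 (beta) above the other DMSO libraries, and NFE2L1 is blue in it.

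Other genes of the pathway were counted from 5 lists, whose counts stand against the background of 20% higher and 20.2% lower in LP-1 and 21.1% higher and 19.6% lower in U266. Among 15 further proteasome subunits and associated factors, 5 rose and none fell of 15 tested in LP-1 (median 0.30), and 5 rose and 2 fell of 14 in U266 (median 0.07). ADRM1, USP14, ECPAS, TXNL1 and AKIRIN2 rose in both lines, except that with TMM-style scaling none of the 5 passed in U266 (adjusted p 0.081 to 0.805; background 11.1% higher). ECPAS, an adaptor and scaffold of the proteasome, had 33.8, 34 and 33 FPKM with DHA against 12.5, 13.7 and 8.58 FPKM with DMSO in LP-1 (log2 change 1.48, adjusted p = 0.00114) and rose by less in U266 (0.34, adjusted p = 0.000585, and 0.0623 in the fit of all 12 libraries; difference 1.15, adjusted p = 0.000523). The ubiquitin receptor ADRM1 had a log2 change of 0.93 in LP-1 and 0.19 in U266, where the call was lost under 8 of 15 alternatives. USP14, a deubiquitinase on the 19S base, had 0.85 in LP-1 and 0.15 in U266, lost under 11 of 15. UBE3C (-0.32) and the inhibitor PSMF1 (-0.15, lost under 10 of 15 alternatives) fell in U266.

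Of 16 genes that process NFE2L1 or partner with it, 9 rose and none fell in LP-1 (median 0.53; background 20% and 20.2%), while 7 rose and 3 fell in U266 (median 0.16; background 21.1% and 19.6%). SEL1L (1.34) and SYVN1 (0.97), genes of an ER ligase complex that marks NFE2L1 for degradation, rose in LP-1. In U266 SEL1L rose (0.34, lost with TMM-style scaling, adjusted p = 0.165) and SYVN1 fell (-0.29, lost in the fit of all 12 libraries, adjusted p = 0.0906), and SYVN1 differed between the lines by 1.26 (adjusted p = 0.000201). VCP, the ATPase that extracts NFE2L1 from the membrane, rose in LP-1 (0.71, limma adjusted p = 0.0011). It had 21.1, 21.0 and 22.3 FPKM with DHA against 13.0, 11.9 and 13.4 FPKM with DMSO. In U266 VCP was lower (-0.13, adjusted p = 0.0366), a call lost under 10 of 15 alternatives. The activating protease DDI2 did not pass in either line (0.38 in LP-1, adjusted p = 0.103; -0.20 in U266, adjusted p = 0.14), and NGLY1 rose in U266 (0.24, adjusted p = 0.345 with TMM-style scaling and 0.0782 in the fit of all 12 libraries) and did not pass in LP-1 (-0.05). The partner MAFG rose in both lines (LP-1 0.88, U266 0.55). So did BACH1, which competes for the same elements (LP-1 1.31, U266 0.76), and NFE2L2, the stress-activated relative of NFE2L1 (LP-1 0.52, U266 0.47). MAFF rose in U266 (0.77) and did not pass in LP-1 (-0.14).

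Of 15 genes for ubiquitin and its activation, 3 rose and 1 fell in LP-1, and 2 rose and 3 fell in U266, where the activating enzyme UBA1 fell (-0.55) and the ligase STUB1 fell (-0.42). In LP-1 the fall of STUB1 (-0.44) was lost without DMSO replicate 1 or any 1 DHA library, with TMM-style scaling and without the filter (adjusted p 0.0549 to 0.105). The ligase UBR4 rose in both (LP-1 1.35, U266 0.37); in LP-1 its DMSO libraries ranged between 2.14 and 9 FPKM, and the call was lost without DMSO replicate 1 or any 1 DHA library and without the filter (adjusted p 0.0743 to 0.105). In U266 the call of UBR4 was lost with TMM-style scaling (adjusted p = 0.0806) and in the fit of all 12 libraries (0.382). Of 11 tested shuttles and receptors, 6 rose and none fell in LP-1 (background 20% and 20.2%), and 7 rose and 2 fell in U266 (background 21.1% and 19.6%). ZFAND2A, an arsenite-inducible proteasome cofactor, rose in both (LP-1 1.55, U266 1.32), as did the autophagy receptor SQSTM1 (LP-1 1.26, U266 0.58).

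Genes that supply peptides to HLA class I were counted beside the immunoproteasome; in LP-1, 6 of 12 fell and 1 rose (median -0.58). Among those that fell were HLA-B (-1.21), B2M (-1.07), HLA-C (-0.86), ERAP2 (-0.83) and the peptide transporter TAP1 (-0.80). In U266, 3 of 12 fell and 2 rose (median -0.06): B2M (-0.24, lost in the fit of all 12 libraries), ERAP2 (-0.21, lost under 8 of 15 alternatives) and TAPBP (-0.18, lost under 3) fell. IRF1, an interferon-response transcription factor that acts on immunoproteasome promoters, rose in LP-1 (0.41, a call lost without any 1 DHA library and with the exon length trend removed, adjusted p 0.0538 to 0.088) and in U266 (0.48, adjusted p = 0.000981). Plasma cell markers moved beside these groups. In LP-1, 5 of 9 tested fell and 2 rose (background 20.2% lower and 20% higher). In U266, 6 of 9 fell (background 19.6% lower and 21.1% higher). The part of these markers in the results was not tested.

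Across the genes described, the log2 change was larger for genes with longer exons. Over 40 genes with a length in LP-1, leaving out NFE2L1, Pearson's r with log10 exon length was 0.40 and Spearman's rho 0.48, and without the third DMSO library r was 0.28. In U266, over 41 genes, r was 0.50 and rho 0.56. These are correlations across genes of the same libraries and not independent replicates, and long exons also set which genes have many reads. Median exon length was 1787 bases for core beta genes, 4490 for base genes, 5164 for lid genes and 5336 for all 7 core alpha genes. The alpha gene at 5336 bases was PSMA2, which was not tested in LP-1. The 6 alpha genes tested there had 1750 to 6996 bases, and 0 of them rose (median log2 change 0.16). With a trend on exon length removed from each library, an alternative added after the data were seen, 12 of 17 base and lid genes rose in LP-1 and 1 of 13 core genes (background 22.9% higher and 22% lower).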

How the data were processed

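RNA of 12 libraries was measured, 3 per group, with groups taken from the labels. The values are FPKM, which the authors deposited as a separate table for each line; in U266 the unit is read from the name of the table. Mouse builds (GRCm38 and mm10) are named in the submitters' processing notes, although both tables hold human genes. No aligner, counting tool or annotation is given in the sources used here. Depth was recovered from the steps of values under 30 reads with GENCODE release 29 exon lengths (83.3 to 84.7% of them lay within 0.1 read of a whole number in LP-1, 94.1 to 95.3% in U266) and covers counting error only. Genes were placed by GENCODE release 29 (GRCh38) and promoter windows came from RefSeq (GRCh38.p14).

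Each line was fitted alone with limma 3.58.1 in R 4.3.3 on log2(FPKM + 1), a scale that understates changes of low genes, for genes at 1 FPKM or more in at least 3 of 6 libraries, two-sided, with a variance trend and Benjamini-Hochberg adjustment over all tested genes at 0.05; "rose" and "fell" mean passing it. Effects of the lines were compared by an interaction contrast over all 12 libraries. Ratios were tested by exact permutation. The fit was tested on simulated data. Alternatives were TMM-style scaling, a pseudocount of 0.1, a minimum mean of 5 FPKM or no filter, quantile normalization, no variance trend, a replicate block, all 12 libraries in 1 fit, removal of an exon length trend, and leaving out each library. All 42 genes are reported, with library values for NFE2L1, PSMB5, PSMB8 to PSMB10, POMP, PSMD14, PSME4, the largest called rise and fall of each class and the largest differences between lines; from the lists, genes were named by their largest called changes and by 9 names fixed whatever their result. Some named genes of the lists are not reported here, though list counts include them. The genes and lists were chosen with earlier results of these data known. No 2 libraries held the same values.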

Additional observations from a re-analysis of the deposited data

Results flagged for a closer look

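The test of the difference between the DHA effects of the lines (LP-1 minus U266, log2, limma interaction) passed for 14 of 41 genes. Over all 8916 genes in this fit, 18.5% had a higher and 16% a lower change in LP-1, so the share passing was near the background. In the base the differences were 0.80 for PSMD1, 0.79 for PSMD2, 0.70 for PSMC4, 0.68 for PSMC3, 0.61 for PSMC5 and 0.52 for PSMC2. In the lid they were 0.57 for PSMD12, 0.39 for PSMD11 and 0.36 for PSMD3. PSME4 differed by 0.50, PSME3 by 0.47 and NFE2L1 by 1.13. The change was lower in LP-1 for PSMB9, by -1.24, and for PSMB8, by -0.78. PSMC5 and PSME3 fell in U266, by 0.31 and 0.42 on the log2 scale, and their LP-1 changes of 0.30 and 0.05 did not pass; the LP-1 change of PSMC5 passed without DMSO replicate 3 (adjusted p = 0.00114). The call was lost under 11 of 20 alternatives for PSMB8 (adjusted p up to 0.101), under 5 for PSMD3 (up to 0.0906), under 2 for PSME4 and under 1 for PSME3; the other 10 passed under all 20.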

How the results depend on the processing

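In LP-1 the rises numbered 8 to 29 and the falls 2 to 4 when a library was left out, and 11 to 18 and 2 to 3 under the other alternatives; 10 of the 17 calls passed under all. In U266, leaving out a library gave 4 to 8 rises and 6 to 8 falls, TMM-style scaling 2 rises and a median of -0.12, quantile normalization 9 rises and a median of 0.07, and 1 fit of all 12 libraries 3 falls; 5 of the 13 calls passed under all. Genes with a higher change in LP-1 numbered 11 to 28 and those with a lower change 1 to 3 without single libraries, with 1 lower without the filter or with TMM-style scaling. The other lists held 6 to 14 falls in LP-1 without single libraries, against 7, and in U266 15 rises and 6 falls in the fit of all 12 libraries and 11 rises with TMM-style scaling, against 23 and 13. Of 2058 single-gene values 1905 kept their call, 86 lost it and 65 gained it; 80 that never passed changed sign. A call appeared on the other side of 0 for PSMB1 in LP-1 (-0.22 to 0.21 without single libraries) and for the PSMB4 difference (0.31 with quantile normalization, against -0.01). The PSMB9 to PSMB6 ratio was -1.46 in LP-1 with 1 FPKM added, and -0.09 to 0.08 in U266 without single libraries. The cause was not tested. Replicate numbers did not pair the libraries (correlation of deviations in LP-1 0.0237 to 0.183, in U266 -0.0832 to -0.0247); with the replicate block 13 rose and 3 fell in LP-1, 4 rose and 8 fell in U266, 12 differences were higher and 2 lower, and the other lists held 24 rises and 7 falls in LP-1 and 23 and 10 in U266. With 3 pairs the exact p of a ratio cannot go below 0.25.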
